A study of Mus musculus with 53 samples.

Results

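Of 53 mouse lungs measured on 1 array each, 23 lungs in 4 groups bear on which of the changes present after 12 weeks of cigarette smoke were undone when smoke was withheld for a further 12 weeks. The groups were taken from the submitters' group labels. Smoke-to-forced-air mice (n = 6) breathed smoke for 12 weeks and then forced air for 12 weeks, and were set against forced air mice of 24 weeks (n = 6). Smoke mice of 12 weeks (n = 5) were set against forced air mice of 12 weeks (n = 6). All were female C57BL/6 mice from 1 supplier, with no genetic change given in the labels. Exposure was through the nose alone, 2 hours a day on 5 days a week, to 4% mainstream smoke or, as the sham procedure, to air. Their label for age repeats the study week, so the age at the start is not given in the sources used here. Tissue was the small lobe of the lung.

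The quantity followed for each gene is the difference of effects. It is the effect after cessation (smoke-to-forced-air minus forced air, both at 24 weeks) minus the 12-week effect (smoke minus forced air, both at 12 weeks), on log2 of the MAS5 signal plus 16. MAS5 is the array maker's summary of a gene's probes into 1 signal, and 16 damps the noise of dim genes, so folds given here understate those of dim genes. Genes count as called where limma, a linear model fitted to 15030 genes on all 53 arrays, gave a p under 0.05 after Benjamini-Hochberg adjustment, and every adjusted p below is from that fit. A 12-week change is named undone where the difference of effects was called against its direction and no effect after cessation was called. Partly undone means that the effect after cessation was still called in the 12-week direction, turned that it was called in the opposite direction, and kept that it was called in the 12-week direction with no called difference. All other 12-week changes are unresolved. The 12-week arrays enter both the choice of genes and the difference, so these names describe and test nothing of their own.

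In the airways and alveoli, smoke particles are taken up by macrophages, which fill with lipid and pigment and switch on lysosomal enzymes and proteases such as the macrophage elastase MMP12. Macrophages and epithelium release CXC chemokines, which draw neutrophils, and CC chemokines, which draw monocytes, dendritic cells and lymphocytes, and acute phase proteins are made in the lung itself. In mice, lymphoid aggregates with B cells form around airways after long exposure.

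The 23 arrays had 67.5% to 75.6% of probe sets called present. All 13 tested markers of alveolar type 2 cells, all 14 of alveolar type 1 cells and all 22 of endothelium were called present on all 23 arrays, and so were 11 of 14 markers of heart muscle, whose summed signal ran from 762 to 6025 in smoke-to-forced-air lungs and from 2456 to 5328 in forced air lungs of 24 weeks. The ratio of 3′ to 5′ Gapdh signal, a measure of RNA integrity, was 1.45 to 1.59 in smoke-to-forced-air lungs, 1.46 to 1.53 in forced air lungs of 24 weeks, 1.48 to 1.54 in smoke lungs of 12 weeks and 1.58 to 2.42 in forced air lungs of 12 weeks. Replicate 1 of forced air at 12 weeks was the only array of the 23 above 2. Replicate 4 of forced air at 24 weeks stood apart in several immune genes (Orm1, Cxcl13, C1qc, Mx1 and Igkv14-111 were each its group's highest by a wide gap). Values without it are given beside several genes that it touches. Without it, called differences of effects fell from 12 to 9 for endothelial, 10 to 8 for ciliated and 10 to 8 for cell cycle genes. They fell from 19 to 17 for chemokine, 10 to 8 for matrix and 8 to 7 for monocyte genes, and in some other lists. They rose from 4 to 5 for alveolar macrophage, 3 to 4 for fatty acid oxidation and 0 to 1 for fibroblast genes. Without it, among the genes below that were named by rule or featured, Icos, Dhcr7, Gsta2, Siglecf and Prkag3 each lost a call, and Cxcl2, Trem2, Icos, Gzma, Oas1a and Rab3d each gained a called effect after cessation. In bulk tissue, fewer cells of a type and less RNA per cell cannot be told apart.

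At 12 weeks smoke had changed 3456 of 15030 genes (23%), 1880 higher (12.5%) and 1576 lower (10.5%). After cessation 298 genes (1.98%) differed from forced air, 219 higher (1.46%) and 79 lower (0.526%). The difference of effects was called for 1673 genes (11.1%), 825 higher (5.49%) and 848 lower (5.64%). For 1428 of these, or 41.3% of the genes changed at 12 weeks, the 12-week change had been called the other way. Of the 3456 genes changed at 12 weeks, 1384 (40.0%) were undone, 24 partly undone, 20 turned and 75 kept, while 1953 were unresolved. An undone gene's effect after cessation missed the threshold, which does not show that nothing was left. Called or not, 1466 of the 1880 higher genes (78.0%) stayed on the 12-week side of 0 after cessation. Among the 1576 lower genes 827 (52.5%) did, and among all genes 58.2%. The median absolute 12-week change was 0.42 on the log2 scale for undone genes and 0.28 for unresolved ones.

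Among genes higher with smoke at 12 weeks, 765 were undone, 24 partly undone, 3 turned, 59 kept and 1029 unresolved. Among genes lower with smoke, 619 were undone, none of the 1576 was partly undone, 17 were turned, 16 kept and 924 unresolved. Fitted through 0 over all 3456 genes, the effect after cessation was 15.4% as large as the 12-week effect. This share was 18.04% over the genes higher with smoke and 2.77% over those lower with smoke, genes not being independent replicates. Leaving out 1 array at a time gave 10.5% to 20.0% over all 3456 genes, the highest without replicate 4 of forced air at 24 weeks. Over the 1366 genes called after 2 weeks of smoke (9.09%), which were chosen on other arrays, it was 10.3%, with 12.1% for the 810 higher and -9.53% for the 556 lower, a change of sign.

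Counts after cessation depended on single control arrays and on the fit. Without replicate 4 of forced air at 24 weeks 308 genes were higher and 91 lower after cessation, and 146 were kept. Without replicate 3 of the same group 52 were higher and 21 lower, and 16 were kept. Undone genes numbered 1194 without replicate 4 and 1327 without replicate 3. With only the 4 groups in the fit 75 genes were higher and 29 lower after cessation. The last number in the sample titles fell into 3 ranges, whose meaning is not stated, and with them as a block 2.87% of genes were higher and 1.04% lower. Within the first range 1339 of the 1384 undone genes (96.7%) had a difference of effects of the same sign, and within the second all 1384, as a description, since the same arrays chose the genes, and the third range held no forced air array of 24 weeks.

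**Figure D1:**
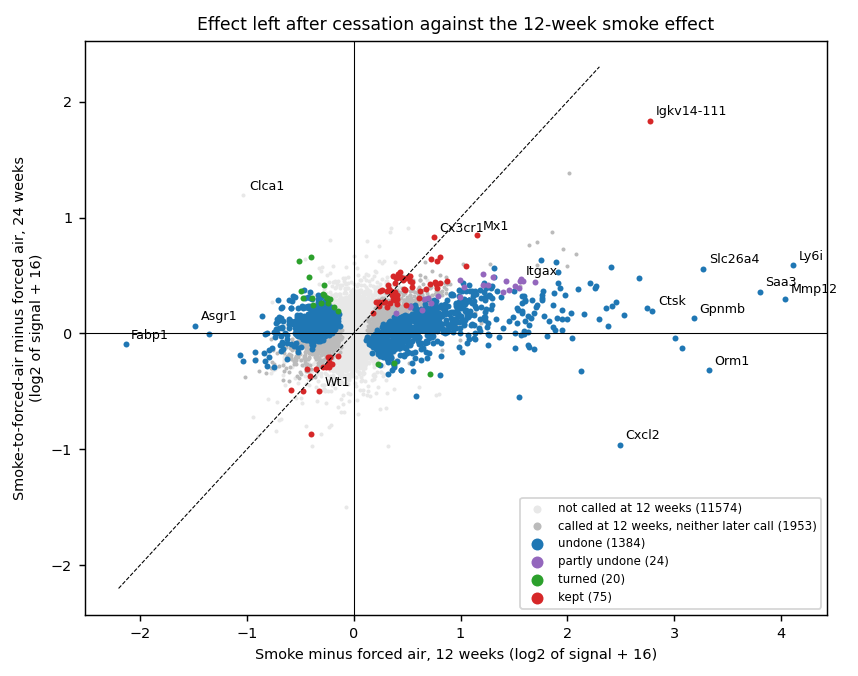
Effect after cessation (vertical axis, smoke-to-forced-air minus forced air at 24 weeks) against the 12-week effect (horizontal axis, smoke minus forced air), both as log2 differences of signal plus 16, 1 point per gene for 15030 genes. The dashed line marks equal effects. The 1384 undone genes (blue) lie along the horizontal line at 0, and the 75 kept genes (red) lie off it, on the side of their 12-week change.

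Foamy and activated macrophage genes went back close to their controls. Of 20 tested genes 16 were higher and 1 was lower with smoke at 12 weeks, and the difference of effects was lower for 15 and higher for 0, against 848 lower and 825 higher of 15030 genes (11.1% called). The median 12-week effect over the list was 1.27 on the log2 scale and the median effect after cessation 0.16, against -0.02 and 0.02 over all genes. In all, 12 were undone and 3 partly undone. The list's summed signal was 10170 to 12443 in smoke-to-forced-air lungs and 9868 to 12434 in forced air lungs of 24 weeks, against 18322 to 20081 in smoke lungs and 10490 to 12153 in forced air lungs of 12 weeks. The count stayed at 15 whichever of the 23 arrays was left out.

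Mmp12, the macrophage elastase, had the most negative difference of effects among the undone genes with a name. Its signal was 34.8 to 153.8 (median 91.7) in smoke-to-forced-air lungs and 37.9 to 126 (median 62.7) in forced air lungs of 24 weeks. At 12 weeks it was 953, 1178, 712, 972 and 1133 in the smoke lungs, against 27.5 to 57.8 (median 47.1) in forced air lungs. Every smoke lung thus lay far above every other lung of the 4 groups, while the cessation lungs overlapped their controls. In Mmp12 the effect after cessation was 0.30 ± 0.24 (SE; adjusted p = 0.578), the 12-week effect was 4.04 ± 0.25 (16.4-fold), and the difference of effects was -3.74 ± 0.35 (adjusted p = 1.24e-11).

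Gpnmb, a glycoprotein of lipid-laden macrophages, gave 74.5 to 215 (median 129) in smoke-to-forced-air lungs and 71.2 to 173 (median 121.6) in forced air lungs of 24 weeks. The 5 smoke lungs of 12 weeks gave 1139, 1217, 868, 1062 and 1240, against 88.4 to 124.3 (median 106) in forced air lungs. Again the smoke lungs stood alone. For Gpnmb the difference of effects was -3.06 ± 0.24 (SE; adjusted p = 1.15e-13). Ctsk, a lysosomal protease that cuts collagen and elastin, had a difference of -2.60 with 0.20 left after cessation, and Trem2, a lipid receptor of macrophages, had -1.86 with 0.41 left (adjusted p = 0.0520 for what was left, 0.0350 with quantile normalization and 0.0255 without replicate 4 of forced air at 24 weeks).

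The 3 partly undone members of this list were Itgax, Clec7a and Cd68. Itgax, the integrin CD11c of alveolar macrophages and dendritic cells, had signals of 270 to 450 (median 335) in smoke-to-forced-air lungs and 207 to 299 (median 241) in forced air lungs of 24 weeks. In smoke lungs of 12 weeks it had 765, 747, 706, 846 and 937, against 241 to 283 (median 258) in forced air lungs. Cessation lungs overlapped their controls but lay below every smoke lung. The effect after cessation, 0.46 ± 0.10 (SE; 1.37-fold, adjusted p = 0.00895), and the difference of effects, -1.11 ± 0.14 (adjusted p = 5.87e-08), were both called. Clec7a, a receptor for fungal glucans, had 0.45 left of a 12-week effect of 1.42 (adjusted p = 0.0104 after cessation).

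Among 12 genes of monocytes and interstitial macrophages the difference of effects was lower for 8 (5.64% of all genes), of which 7 were undone and 1 partly undone. Ms4a7 had a difference of -2.37, and all 3 chains of the complement starter C1q were undone. C1qc had 93.9 to 180 (median 148) in smoke-to-forced-air lungs and 104.6 to 180 (median 111.6) in forced air lungs of 24 weeks, against 473, 449, 369, 416 and 439 in smoke lungs and 98.6 to 140.9 (median 124.4) in forced air lungs of 12 weeks. The smoke lungs did not overlap any other group. Its difference of effects was -1.51 ± 0.17 (SE; adjusted p = 6.54e-09), and -1.40 without replicate 4 of forced air at 24 weeks. Adgre1, the F4/80 antigen, was partly undone (0.38 left of 1.45, adjusted p = 0.0105), and Cx3cr1 was kept, as described below. Markers of alveolar macrophages moved less together, with 3 of 11 lower and 1 higher in the difference of effects. The scavenger receptor Marco was undone (-1.28), with 0.61 of 1.89 left (adjusted p = 0.0677), whereas the lectin Siglecf was not called at 12 weeks (-0.18) and was higher after cessation (0.39, adjusted p = 0.0368, but 0.0577 without replicate 4 of forced air at 24 weeks). With quantile normalization 7 of the 11 were called.

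Chemokine genes were undone in 19 of 21 cases. Of 24 tested CXC and CC chemokines 20 were higher and 1 was lower at 12 weeks, 19 of these were undone, and none was called after cessation, where 1.98% of all genes were. The median difference of effects was -1.35 on the log2 scale, against 0.03 over all genes. Leaving out 1 array at a time left 15 to 21 called differences.

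Of 24 chemokine genes 17 had a promoter in the table of RefSeq promoters (250 bases before to 50 after the start, GRCm38.p6). The 10-letter kappaB motif, one form of the site bound by NF-kappaB (GGG, any 2 letters, then TTTCC), occurred on either strand in 5 of these 17, in 23 of 604 promoters of undone genes that had been higher with smoke (3.81%) and in 438 of 27025 promoters in all (1.62%). A match is a description of the letters and shows no binding. The promoters of Cxcl1, Cxcl2 and Ccl20, which each hold a match, are printed with the matches in capitals, on the plus strand, at chr5:90890995-90891294, chr5:90903649-90903948 and chr1:83116516-83116815. These 3 do not stand for the chemokines described below, whose other promoters are not shown.
Cxcl1: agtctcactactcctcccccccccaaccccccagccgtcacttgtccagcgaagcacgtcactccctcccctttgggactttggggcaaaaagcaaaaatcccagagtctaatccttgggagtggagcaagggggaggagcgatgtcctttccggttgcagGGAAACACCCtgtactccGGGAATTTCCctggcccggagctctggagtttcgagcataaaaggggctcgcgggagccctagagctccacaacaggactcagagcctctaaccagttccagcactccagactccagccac
Cxcl2: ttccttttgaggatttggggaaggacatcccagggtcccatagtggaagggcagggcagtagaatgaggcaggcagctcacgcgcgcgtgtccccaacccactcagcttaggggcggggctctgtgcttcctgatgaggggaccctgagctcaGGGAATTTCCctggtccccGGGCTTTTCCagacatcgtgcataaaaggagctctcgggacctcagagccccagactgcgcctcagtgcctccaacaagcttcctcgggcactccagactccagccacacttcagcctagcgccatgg
Ccl20: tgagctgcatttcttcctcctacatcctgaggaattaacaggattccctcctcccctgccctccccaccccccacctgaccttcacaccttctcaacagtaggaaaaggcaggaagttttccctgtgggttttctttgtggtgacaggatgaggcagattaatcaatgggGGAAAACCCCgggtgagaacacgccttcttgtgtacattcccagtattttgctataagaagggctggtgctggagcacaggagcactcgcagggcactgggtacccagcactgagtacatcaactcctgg

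Cxcl1, a neutrophil attractant, had signals of 31.3 to 105.4 (median 48.8) in smoke-to-forced-air lungs and 41.7 to 113 (median 61.9) in forced air lungs of 24 weeks. In smoke lungs of 12 weeks it had 221, 192, 247, 249 and 275, against 34.3 to 52.1 (median 41.1) in forced air lungs. The smoke lungs lay above every other lung, and cessation lungs overlapped their controls. For Cxcl1 the difference of effects was -2.45 ± 0.32 (SE; adjusted p = 1.49e-07).

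For Cxcl2, which binds the same receptor, the control side moved as well. It had 22.5 to 222 (median 44.0) in smoke-to-forced-air lungs and 36.2 to 260 (median 128) in forced air lungs of 24 weeks, against 201, 279, 272, 215 and 190 in smoke lungs and 10.5 to 67.5 (median 23.9) in forced air lungs of 12 weeks. Smoke and cessation lungs overlapped through 1 cessation lung at 222. Forced air lungs were 1.62 higher at 24 than at 12 weeks on the log2 scale (adjusted p = 0.000157), so that part of the difference of effects, -3.45 ± 0.46 (SE), lay between the controls. In Cxcl2 the effect after cessation was -0.96 (adjusted p = 0.104), and without replicate 4 of forced air at 24 weeks it was -1.23 and called (adjusted p = 0.0204).

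Ccl20, which draws dendritic cells and lymphocytes through CCR6, followed the same course at low signal. It had 4.62 to 22.2 (median 11.2) in smoke-to-forced-air lungs and 14.9 to 38.2 (median 23.8) in forced air lungs of 24 weeks, against 26.5, 45.2, 34.1, 41.6 and 105.5 in smoke lungs and 3.33 to 7.87 (median 4.84) in forced air lungs of 12 weeks. No forced air lung of 12 weeks had it called present, against all 5 smoke lungs. Forced air lungs of 24 weeks all lay above those of 12 weeks, a control change of 0.93 (adjusted p = 0.000425). For Ccl20 the difference of effects was -2.10 ± 0.29 (SE; adjusted p = 3.85e-07). Ccl20 was named after its values were seen.

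Among the attractants of monocytes, Ccl2 had 20.2 to 58.8 (median 26.9) in smoke-to-forced-air lungs and 23.8 to 42.5 (median 26.9) in forced air lungs of 24 weeks. Smoke lungs of 12 weeks had 239, 192, 108, 176 and 136, against 12.1 to 24.5 (median 20.7) in forced air lungs, where 2 of 6 arrays called it present. Cessation lungs were level with their controls at the median. For Ccl2 the difference of effects was -2.32 ± 0.28 (SE; adjusted p = 1.39e-08). Ccl3 had -3.20, with a control change of 0.64 (adjusted p = 0.0387).

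Cxcl13, the B cell attractant, had an effect after cessation that did not pass the test. Its signal was 227 to 431 (median 330) in smoke-to-forced-air lungs and 156 to 529 (median 219) in forced air lungs of 24 weeks, against 998, 634, 455, 744 and 699 in smoke lungs and 140 to 202 (median 166) in forced air lungs of 12 weeks. All smoke lungs lay above all cessation lungs. For Cxcl13 the difference of effects was -1.55 ± 0.28 (SE; adjusted p = 8.84e-05) and the effect after cessation 0.39 (adjusted p = 0.320), or 0.60 (adjusted p = 0.0531) without replicate 4 of forced air at 24 weeks, which held the 529. The one chemokine lower with smoke, Cxcl14, was 0.41 lower at 12 weeks on the log2 scale, and its difference of effects was 0.36.

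Of 20 tested acute phase proteins and cytokines 16 were higher at 12 weeks and 13 of these were undone. The difference of effects was lower for 13 and higher for 0, where 5.64% of all genes were lower. Saa3, the serum amyloid A of macrophages and epithelium, had 55.3 to 496 (median 130) in smoke-to-forced-air lungs and 72.8 to 240 (median 90.6) in forced air lungs of 24 weeks, against 1595, 1758, 1967, 1587 and 1360 in smoke lungs and 67.7 to 150 (median 103) in forced air lungs of 12 weeks. Cessation lungs spread widely, from below their controls to above them, yet all lay under the smoke lungs. For Saa3 the difference of effects was -3.44 ± 0.46 (SE; adjusted p = 1.87e-07).

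Orm1, which encodes the plasma carrier orosomucoid, had 16.2 to 85.6 (median 39.7) in smoke-to-forced-air lungs and 25.8 to 382 (median 33.4) in forced air lungs of 24 weeks. The 5 smoke lungs of 12 weeks had 498, 611, 513, 588 and 612, against 23.1 to 71.1 (median 42.6) in forced air lungs. The 382 belonged to replicate 4 of forced air at 24 weeks, and the next value of its group was 48.1. For Orm1 the difference of effects was -3.64 ± 0.52 (SE), and -3.14 (adjusted p = 2.19e-07) without that array. Orm2 gave -3.05, and Lcn2, an iron-trapping lipocalin, -0.96. Among cytokines the interleukin 1 receptor antagonist Il1rn had a difference of -1.86 and Csf2, which encodes the growth factor GM-CSF, -1.57. Csf1, the macrophage growth factor, was kept (0.37 of 0.62, adjusted p = 0.0181), a call lost with the probe set of largest spread and without either of 2 single arrays.

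Complement, lysosome and cell cycle lists held lower differences of effects as well. At 12 weeks 12.5% of all genes were higher, and in the difference of effects 5.64% were lower. Of 11 complement genes 5 were lower and none higher in the difference of effects, among them Cfb (-1.71) and the receptor C3ar1 (-1.85). Of 27 lysosome genes 21 were higher at 12 weeks and 15 were lower in the difference of effects, with a median of -0.32, and Ctsa, a protective protein of the lysosome, was partly undone (0.20 left, adjusted p = 0.0492). Of 22 cell cycle genes 19 were higher at 12 weeks and 10 were undone, the other 9 being unresolved. Mki67, the proliferation antigen, had 0.35 after cessation (adjusted p = 0.233) and 1.13 at 12 weeks, with a difference of -0.78. With only the 4 groups in the fit, 6 of the 22 were called.

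**Figure D2:**
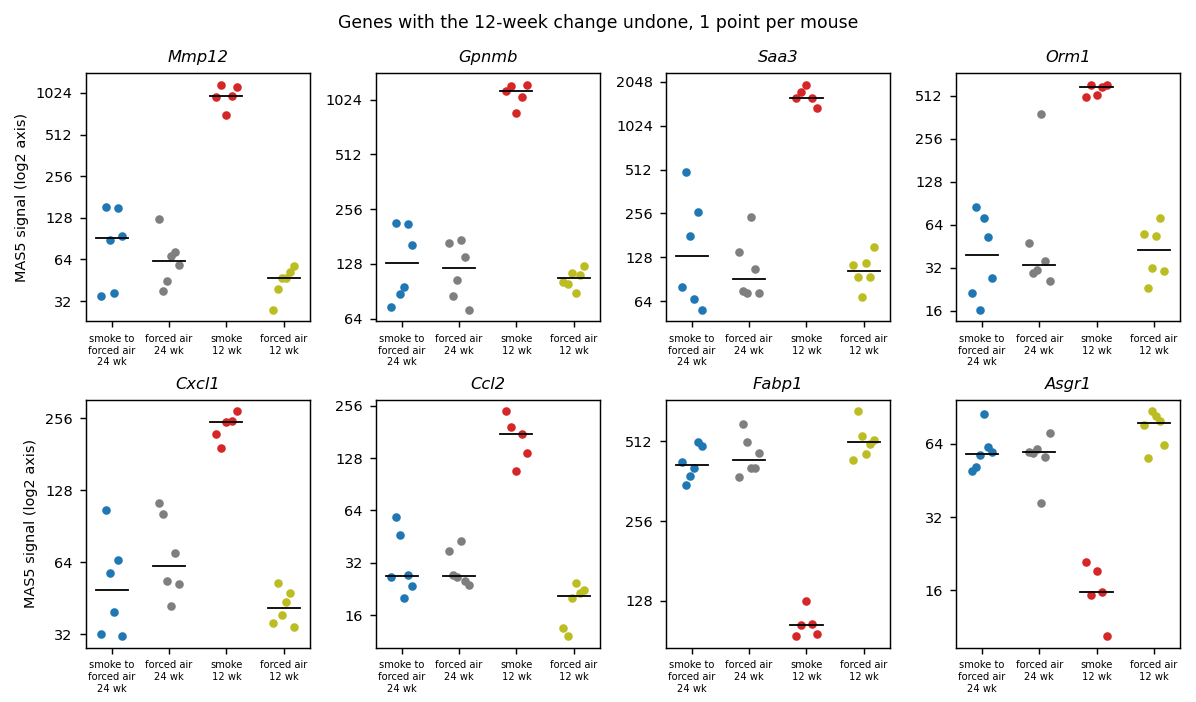
MAS5 signal (log2 axis) of 8 undone genes, 1 point per mouse and the median as a bar, in smoke-to-forced-air lungs (n = 6), forced air lungs of 24 weeks (n = 6), smoke lungs of 12 weeks (n = 5) and forced air lungs of 12 weeks (n = 6). The 5 smoke lungs lie apart from all others in each panel, above them for Mmp12, Gpnmb, Saa3, Orm1, Cxcl1 and Ccl2 and below them for Fabp1 and Asgr1.

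Among genes that handle smoke chemicals and oxidants, both aryl hydrocarbon receptor targets called at 12 weeks were undone. Cyp1b1, a target of the aryl hydrocarbon receptor that oxidizes polycyclic hydrocarbons, had 125 to 230 (median 199) in smoke-to-forced-air lungs and 127.2 to 198 (median 151.7) in forced air lungs of 24 weeks, against 315, 284, 317, 384 and 326 in smoke lungs and 107 to 148 (median 135) in forced air lungs of 12 weeks. No cessation lung reached a smoke lung. Its difference of effects was -0.97 ± 0.15 (SE; adjusted p = 4.99e-06), and 0.23 was left (adjusted p = 0.251). Ahrr, the repressor of the same receptor, had -0.55, and the receptor gene Ahr itself, not called at 12 weeks, had 0.32. These were the 3 called in the difference of effects of 8 tested genes, against 11.1% of all genes. At 12 weeks 2 of the 8 were called, close to the 23% of all genes. Cyp1a1, the classical target, was called neither at 12 weeks (-0.22) nor after cessation (-0.08).

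Slc7a11, the cystine transporter that feeds glutathione synthesis, had 4.94 to 18.9 (median 7.69) in smoke-to-forced-air lungs and 4.76 to 9.89 (median 8.71) in forced air lungs of 24 weeks. Smoke lungs of 12 weeks had 28.4, 52.8, 54.3, 48.8 and 48.2, against 2.53 to 6.83 (median 6.21) in forced air lungs. All smoke lungs lay above all others. For Slc7a11 the difference of effects was -1.44 ± 0.19 (SE; adjusted p = 2.89e-07). Of 28 tested NRF2 and glutathione genes 13 were called at 12 weeks (against 23% of all genes) and 8 undone (against 9.21% of all genes). In the difference of effects 4 were lower, the inducible Slc7a11, Hmox1, Gclc and Akr1b8, and 4 were higher, Gpx2, Gsta2, Gstm2 and Keap1. Gsta2 had 0.46, and 0.44 (adjusted p = 0.0515) without replicate 4 of forced air at 24 weeks. Nqo1 was not called in any of the 3 comparisons.

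The largest difference of effects in the other direction, among undone genes with a name, was that of Fabp1, the liver-type fatty acid binding protein. It had 350 to 510 (median 416) in smoke-to-forced-air lungs and 376 to 594 (median 434) in forced air lungs of 24 weeks. The 5 smoke lungs of 12 weeks had 94.0, 103.7, 127.4, 104.7 and 96.4, against 434 to 667 (median 508) in forced air lungs. The 5 smoke lungs lay below every other lung. The 12-week effect was -2.13 (4.39-fold lower), the effect after cessation -0.09 ± 0.13 (SE; adjusted p = 0.790), and the difference of effects 2.04 ± 0.19 (adjusted p = 2.38e-11). Acaa1b, a thiolase of peroxisomal fatty acid oxidation, had a difference of 0.76, a call lost with the 3′/5′ ratios as covariates. With Ehhadh (0.40) they were the 3 called of 15 tested genes of fatty acid oxidation, and 2 of these 3 were undone. Of all genes 11.1% had a called difference of effects, and 5.49% a higher one. With the 3′/5′ ratios as covariates 1 of the 15 was called.

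Asgr1, a subunit of the asialoglycoprotein receptor, had 49.7 to 85.1 (median 58.4) in smoke-to-forced-air lungs and 36.7 to 71.2 (median 59.2) in forced air lungs of 24 weeks, against 21.0, 15.3, 19.3, 15.7 and 10.3 in smoke lungs and 55.9 to 87.6 (median 78.1) in forced air lungs of 12 weeks. Smoke lungs again stood apart. For Asgr1 the difference of effects was 1.55 ± 0.16 (SE; adjusted p = 5.60e-10), of which a control change of -0.31 (adjusted p = 0.0365) was part. Bex2 (1.35), Iyd (1.01), Efhd1 (1.00), Kif26b (0.90), the clock repressor Nr1d1 (0.89) and Prdm8 (0.89) were undone in the same direction.

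Many markers of resident cells were lower at 12 weeks and higher in the difference of effects. Of 22 endothelial genes 15 were lower at 12 weeks, against 10.5% of all genes, and 12 had a higher and 0 a lower difference of effects. None of the 22 was called after cessation, where only 1.98% of all genes were. Ciliated cell genes gave 10 of 18 higher and 0 lower, smooth muscle and pericyte genes 6 of 13 higher and 0 lower, and alveolar type 1 genes 4 of 14 higher and 0 lower, where 5.49% of all genes were higher. Median differences of effects for these 4 lists were 0.33, 0.36, 0.41 and 0.22 in that order. Between cessation and smoke lungs 10 endothelial genes were higher and 1 lower, 3 ciliated genes higher (median 0.11) and 12 smooth muscle genes higher. Between the controls 8 endothelial genes were lower and 1 higher, 10 of the 18 ciliated genes lower (median -0.22) and 0 smooth muscle genes lower. For ciliated genes the larger median thus lay between the controls. Of all genes 21.6% were called between cessation and smoke lungs and 25.8% between the controls. No fibroblast, mesothelial or heart muscle gene had a called difference, and the heart muscle list had medians of -0.34 after cessation and -0.61 at 12 weeks.

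Acta2, the actin of smooth muscle, had 1010 to 1257 (median 1087) in smoke-to-forced-air lungs and 860 to 1231 (median 998) in forced air lungs of 24 weeks. Smoke lungs of 12 weeks had 807, 607, 935, 840 and 609, against 937 to 1423 (median 1050) in forced air lungs. Cessation lungs were all above the smoke lungs and overlapped their controls. For Acta2 the difference of effects was 0.66 ± 0.14 (SE; adjusted p = 0.00116), a call lost with the probe set of largest spread. The 1423 was replicate 1 of forced air at 12 weeks, the array with the high Gapdh ratio, and without it the difference was 0.58 (adjusted p = 0.00341).

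Tppp3, a microtubule protein of ciliated cells, had 503 to 709 (median 626) in smoke-to-forced-air lungs and 485 to 702 (median 614) in forced air lungs of 24 weeks, against 551, 415, 502, 514 and 449 in smoke lungs and 584 to 887 (median 673) in forced air lungs of 12 weeks. Cessation lungs overlapped both their controls and the smoke lungs. Its difference of effects, 0.51 ± 0.12 (SE; adjusted p = 0.00299), was not called with the 3′/5′ ratios as covariates. In that fit 7 of 22 endothelial, 7 of 18 ciliated, 5 of 13 smooth muscle and 1 of 14 alveolar type 1 genes were called. Without replicate 1 of forced air at 12 weeks, the array with a Gapdh ratio above 2, these counts were 9, 9, 6 and 3. Without replicate 4 of forced air at 24 weeks they were 9, 8, 6 and 3.

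**Figure D3:**
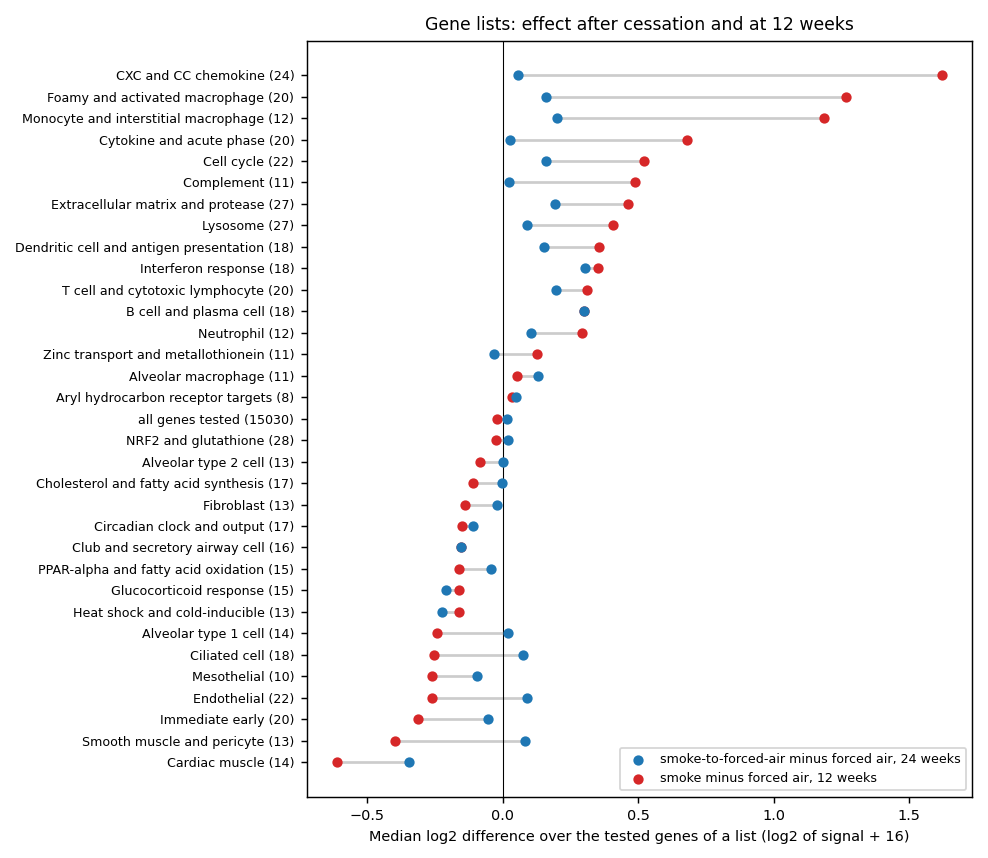
Median log2 difference over the tested genes of each list (number in brackets), after cessation (blue) and at 12 weeks (red), with the same over all 15030 genes. Chemokine, foamy macrophage, monocyte and acute phase lists lie far right at 12 weeks and near 0 after cessation, while the interferon and B cell lists have nearly the same median in both.

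A difference of effects has 4 groups in it, and the controls were not still. Forced air lungs of 24 weeks differed from those of 12 weeks in 3883 genes (25.8%), and smoke-to-forced-air lungs of 24 weeks differed from smoke lungs of 12 weeks in 3244 (21.6%). Among the 765 undone genes that had been higher with smoke, 503 were called between cessation and smoke lungs alone, 151 between the controls alone, 87 in both and 24 in neither. Among the 619 that had been lower with smoke these counts were 255, 254, 71 and 39. The control change was thus called for 31.1% of the first set and 52.5% of the second, against 25.8% of all genes. It is itself part of the difference of effects that chose these genes, so the choice raises both shares and they are a description only.

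Undone genes that had been higher with smoke had a median of -0.45 between cessation and smoke lungs and of 0.11 between the controls. Undone genes that had been lower with smoke had medians of 0.23 and -0.21. The Gapdh ratio was 1.58 to 2.42 in forced air lungs of 12 weeks and 1.46 to 1.53 in those of 24 weeks. With the 3′/5′ ratios as covariates 2353 genes (15.66%) were called between the controls. Age, handling time, array handling and RNA integrity at the 2 weeks cannot be told apart in the controls.

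**Figure D4:**
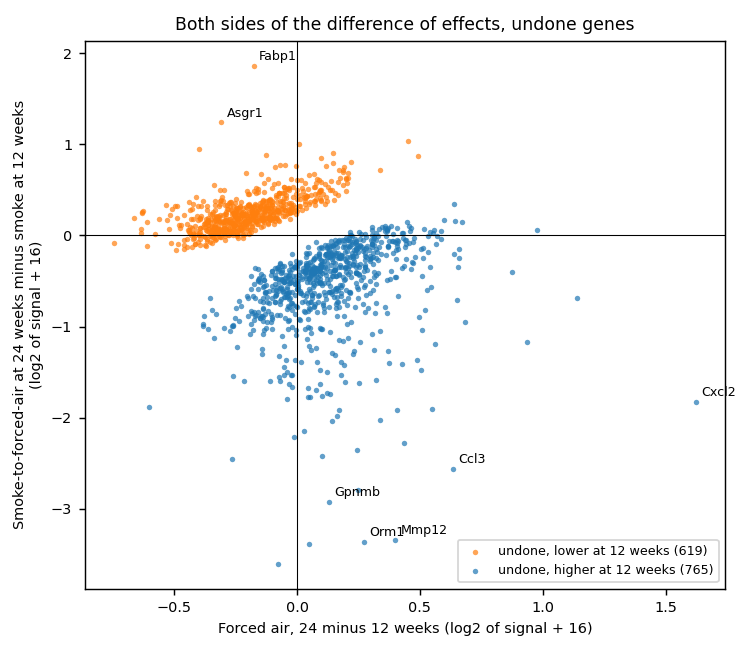
The 2 sides of the difference of effects for the 1384 undone genes, as log2 differences of signal plus 16. The vertical axis gives smoke-to-forced-air lungs of 24 weeks minus smoke lungs of 12 weeks and the horizontal axis forced air lungs of 24 minus 12 weeks, and Cxcl2 lies far right through its control change of 1.62.

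The 75 kept genes were a small group with modest effects, and the difference of effects had to miss its threshold for a gene to be in it, which does not show that the effects were equal. Cx3cr1, the fractalkine receptor of monocytes and macrophages, had 33.7 to 97.8 (median 76.1) in smoke-to-forced-air lungs and 18.7 to 43.2 (median 33.1) in forced air lungs of 24 weeks, against 90.9, 98.7, 67.0, 85.1 and 94.5 in smoke lungs and 32.8 to 61.8 (median 44.99) in forced air lungs of 12 weeks. All but 1 cessation lung lay above all their controls. In Cx3cr1 the effect after cessation was 0.83 ± 0.16 (SE; 1.78-fold, adjusted p = 0.00367) and the 12-week effect 0.75 (adjusted p = 0.000515). For Cx3cr1 the difference of effects was 0.08, with a 95% interval from -0.38 to 0.54. Both calls were made whichever of the 23 arrays was left out.

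Mx1, an antiviral GTPase induced by type I interferon, had 65.3 to 142 (median 107) in smoke-to-forced-air lungs and 37.9 to 86.1 (median 44.8) in forced air lungs of 24 weeks. The 5 smoke lungs of 12 weeks had 169, 163, 69.2, 209 and 126, against 40.7 to 70.3 (median 51.5) in forced air lungs. Each pair of groups overlapped. In Mx1 the effect after cessation was 0.85 ± 0.20 (SE; adjusted p = 0.0154), or 0.98 without replicate 4 of forced air at 24 weeks, and it was not called when replicate 6 of the cessation group was left out (adjusted p = 0.0643). For Mx1 the difference of effects was -0.30 (95% interval from -0.88 to 0.27).

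Mx1 was 1 of 18 tested interferon response genes, of which 11 were higher at 12 weeks (against 12.5% of all genes) and 6 after cessation (against 1.46%). The difference of effects was higher for 1 (Gbp2) and lower for 1 (Oas1a). Kept members were Mx1, Zbp1, Oasl2 and Bst2, while Gbp2 and the RNA sensor Ifih1 were called after cessation without a call at 12 weeks. Medians were 0.30 after cessation and 0.35 at 12 weeks. Between cessation and smoke lungs 9 of the 18 genes were lower and 0 higher (median -0.25). Between the controls 4 were lower and 0 higher (median -0.15). Of all genes 21.6% were called between cessation and smoke lungs and 25.8% between the controls. The list's summed signal was 2900 to 3463 in forced air lungs of 24 weeks and 3547 to 3880 in those of 12 weeks. Zbp1 and Oasl2 each lost the call after cessation when any of 7 single arrays was left out.

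Igkv14-111, an immunoglobulin kappa variable gene, had 121.8 to 881 (median 271) in smoke-to-forced-air lungs and 31.1 to 308 (median 64.8) in forced air lungs of 24 weeks, against 673, 457, 132, 385 and 879 in smoke lungs and 32.2 to 108 (median 38.9) in forced air lungs of 12 weeks. Groups at 24 weeks overlapped through replicate 4 of forced air, at 308. In Igkv14-111 the effect after cessation was 1.83 ± 0.40 (SE; adjusted p = 0.0104), or 2.18 without that array, and it was not called with only the 4 groups in the fit (adjusted p = 0.0532). Probes of one variable gene can bind transcripts of close relatives, so the gene itself is uncertain. Of 18 tested genes on the B and plasma cell list 8 were higher at 12 weeks, against 12.5% of all genes. Of these 1 was undone and 7 were unresolved. None of the 18 was called after cessation, where only 1.98% of all genes were. The list's median was 0.30 in both. Ighm, the heavy chain of IgM, had 0.59 after cessation and 1.71 at 12 weeks (adjusted p = 0.483 after cessation).

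Further kept genes that had been higher with smoke were Ptpro, a receptor phosphatase (0.62 after cessation, 0.78 at 12 weeks), Ms4a6c (0.64 and 0.73), Lair1, an inhibitory collagen receptor (0.58 and 1.05), and Col3a1, a fibrillar collagen (0.44 and 0.76). Lair1 lost the call after cessation when any of 7 arrays was left out, and Ms4a6c for any of 4. Of 18 genes of dendritic cells and antigen presentation 4 were called after cessation, against 1.98% of all genes. They were the class II chains H2-Ab1 and H2-Eb1, which were kept, the class II helper H2-DMa (0.49, adjusted p = 0.0243), not called at 12 weeks, and the costimulator Cd86, partly undone (0.42, adjusted p = 0.0424).

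Wt1, a transcription factor of mesothelium, was lower after cessation and with smoke at 12 weeks, while the change between its controls was larger. It had 29.8 to 56.6 (median 40.3) in smoke-to-forced-air lungs and 54.3 to 79.7 (median 60.7) in forced air lungs of 24 weeks, against 20.7, 22.8, 20.3, 8.73 and 19.3 in smoke lungs and 23.2 to 37.0 (median 25.2) in forced air lungs of 12 weeks. Only the highest cessation lung reached into the range of its controls. In Wt1 the effect after cessation was -0.50 ± 0.09 (SE; adjusted p = 0.00354) and the 12-week effect -0.32 (adjusted p = 0.0125), the second lost without replicate 4 of either group of 12 weeks. Forced air lungs were 0.90 higher at 24 than at 12 weeks (adjusted p = 2.06e-09). Of the 10 mesothelial markers 7 were lower at 12 weeks (against 10.5% of all genes), and Wt1 was the one called after cessation (against 0.526% of all genes lower). Other genes kept lower were the imprinted Peg3 (-0.31 after cessation, -0.44 at 12 weeks), Grhl1, a factor of epithelial differentiation (-0.31, -0.35), the metabolic regulator Klf15 (-0.49, -0.59) and the small heat shock protein Hspb1 (-0.49, -0.48). Klf15 lost its call after cessation without any of 9 single arrays, and Hspb1 without any of 11.

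**Figure D5:**
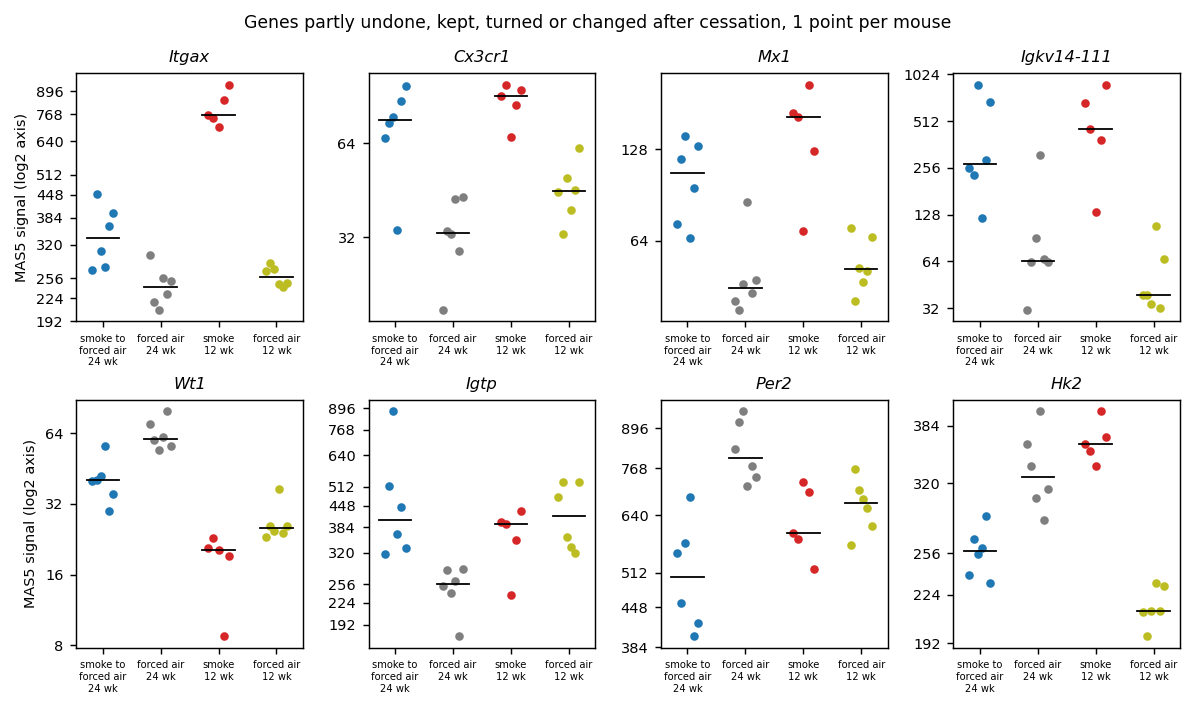
MAS5 signal (log2 axis) of 8 genes in the same 4 groups, 1 point per mouse and the median as a bar. Itgax was partly undone, Cx3cr1, Mx1, Igkv14-111 and Wt1 were kept, Hk2 turned, and Igtp and Per2 were called after cessation without a call at 12 weeks. All 6 cessation lungs lie above all 6 of their controls for Igtp and below them for Per2.

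Among the 20 turned genes, 17 had been lower and 3 higher with smoke. Shisa2, an inhibitor of Wnt and FGF receptor maturation, had 383 to 537 (median 447) in smoke-to-forced-air lungs and 200 to 361 (median 282) in forced air lungs of 24 weeks. Smoke lungs of 12 weeks had 361, 350, 244, 277 and 269, against 308 to 462 (median 395) in forced air lungs. The cessation lungs lay above all their controls, and the smoke lungs overlapped theirs. In Shisa2 the effect after cessation was 0.66 ± 0.12 (SE; adjusted p = 0.00213), the 12-week effect -0.40 (adjusted p = 0.0142) and the control change -0.49 (adjusted p = 0.00162). Prkag3 (0.62 after cessation), C1qtnf2 (0.49), St6galnac3 (0.42) and Epha1 (0.37) turned the same way, and each of these 4 lost a call when single arrays were left out.

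Hk2, the inducible hexokinase of glycolysis, turned in the opposite sense, and was named after its values were seen. It had 233 to 288 (median 258) in smoke-to-forced-air lungs and 284 to 403 (median 326) in forced air lungs of 24 weeks, against 363, 355, 338, 403 and 370 in smoke lungs and 196 to 232 (median 213) in forced air lungs of 12 weeks. Smoke lungs lay above their controls and cessation lungs mostly below theirs. In Hk2 the effect after cessation was -0.35 ± 0.08 (SE; adjusted p = 0.0119) and the 12-week effect 0.72 (adjusted p = 1.62e-09). Forced air lungs of 24 weeks were all above those of 12 weeks, a control change of 0.59 (adjusted p = 6.62e-07).

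Of 27 matrix and protease genes 8 were lower and 2 higher in the difference of effects (11.1% of all genes called), among them the protease inhibitor Timp1 (-1.33), the protease Mmp19 (-1.35) and the collagen crosslinker Lox (-1.01, with a control change of 0.66). After cessation Col3a1, Col5a1 (0.37) and Loxl1 (0.62) were higher, the last 2 without a call at 12 weeks. Of 11 zinc transport genes 4 were lower, led by the transporter Slc39a2 (-1.87).

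Lists of airway and alveolar secretory cells and of neutrophils held some lower differences of effects, where 5.64% of all genes were lower and 11.1% called. Of 16 club and secretory airway genes 2 were lower, the antibody transporter Pigr (-1.38) and the mucin Muc4 (-0.61). Of 13 alveolar type 2 genes 3 were lower, the alarmin Il33 (-0.84), Muc1 (-0.44) and the collectin Sftpd (-0.35). Of 12 neutrophil genes 2 were lower, the decoy receptor Il1r2 (-1.17) and the collagenase Mmp8 (-0.74).

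Of 20 T and cytotoxic cell genes 2 were lower, Ctla4 (-1.22) and Icos (-0.68), and 2 higher, Gzma and Gzmb, where 11.1% of all genes were called. Icos had -0.52 (adjusted p = 0.0888) without replicate 4 of forced air at 24 weeks. Glucocorticoid response genes gave 4 of 15 lower, heat shock genes 1 of 13 lower and 1 higher, immediate early genes 1 of 20 higher (Egr1, 0.82) and cholesterol genes 1 of 17 lower (Dhcr7, -0.42), the last 2 shares being close to the 5.49% higher and 5.64% lower of all genes. Dhcr7 had -0.37 (adjusted p = 0.0597) without replicate 4 of forced air at 24 weeks, and with only the 4 groups in the fit 0 genes of either list were called. With the 3′/5′ ratios as covariates 6 of the 13 heat shock genes were called.

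For 245 genes the difference of effects was called without a call at 12 weeks, 189 higher and 56 lower. The controls had changed in 161 of these (65.7%, against 25.8% of all genes), a share that the choice of genes on the difference of effects itself raises. The lymphocyte protease Gzma had 425 to 1421 (median 548) in smoke-to-forced-air lungs and 254 to 565 (median 405) in forced air lungs of 24 weeks, against 507, 667, 375, 366 and 469 in smoke lungs and 467 to 848 (median 644) in forced air lungs of 12 weeks. All groups overlapped, and the control was the lower of its pair at 24 weeks and the higher at 12 weeks. For Gzma the difference of effects was 1.10 ± 0.27 (SE; adjusted p = 0.00447) and the control change -0.66 (adjusted p = 0.00731). The 1421 belonged to replicate 3 of the cessation group, without which the difference was 0.87 (adjusted p = 0.0107).

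Clca1, a secreted protein of mucous cells, gave the largest value of this kind among genes with a name, on signals near background. It had 1.87 to 215 (median 9.07, present in 4 of 6) in smoke-to-forced-air lungs and 2.81 to 9.04 (median 4.10, present in 2 of 6) in forced air lungs of 24 weeks. At 12 weeks the smoke lungs had 3.51, 2.39, 0.632, 8.20 and 13.7, against 4.16 to 123 (median 20.05) in forced air lungs. All 4 groups overlapped, and a few lungs held the high values. The difference of effects of 2.23 ± 0.62 (SE; adjusted p = 0.0121) was not called with only the 4 groups in the fit. Rab3d (-0.95), Decr2 (-0.90), Ttll1 (-0.86), Mpzl2 (-0.82) and Ahsa2 (-0.74) were the named genes with the lowest such differences.

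After cessation 179 of the 298 called genes had no call at 12 weeks, 119 higher and 60 lower. They include GTPases induced by interferon gamma, of a family that acts against intracellular microbes. The promoters of Igtp and of its neighbour Irgm2 each held the 10-letter motif of the interferon-stimulated response element (GAAA, any 2 letters, then GAAA) on either strand. It was found in 10 of 14 promoters of the interferon response list, in 6 of 89 promoters of genes higher after cessation without a call at 12 weeks (6.74%) and in 943 of 27025 promoters in all (3.49%). They lie at chr11:58199306-58199605 and chr11:58214727-58215026, plus strand, with the match in capitals.
Igtp: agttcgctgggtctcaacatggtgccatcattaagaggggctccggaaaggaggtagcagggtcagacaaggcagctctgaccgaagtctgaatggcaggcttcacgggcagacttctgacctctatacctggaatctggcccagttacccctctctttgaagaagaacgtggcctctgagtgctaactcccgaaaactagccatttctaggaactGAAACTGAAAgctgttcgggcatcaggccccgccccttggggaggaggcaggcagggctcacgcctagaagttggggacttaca
Irgm2: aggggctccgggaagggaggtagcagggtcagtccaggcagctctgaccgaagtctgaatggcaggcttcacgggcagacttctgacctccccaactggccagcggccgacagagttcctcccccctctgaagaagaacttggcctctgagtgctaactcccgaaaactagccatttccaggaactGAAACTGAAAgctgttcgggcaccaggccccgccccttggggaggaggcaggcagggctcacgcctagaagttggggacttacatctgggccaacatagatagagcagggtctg

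Igtp had 317 to 878 (median 404) in smoke-to-forced-air lungs and 177 to 286 (median 257) in forced air lungs of 24 weeks, against 398, 393, 238, 350 and 430 in smoke lungs and 320 to 530 (median 417) in forced air lungs of 12 weeks. Cessation lungs lay above all their controls, which in turn lay below all forced air lungs of 12 weeks. In Igtp the effect after cessation was 0.81 ± 0.20 (SE; adjusted p = 0.0251), and it was not called without replicate 3 of the cessation group (0.62, adjusted p = 0.0871), which held the 878. For Igtp the difference of effects was 1.03 ± 0.30 (SE; adjusted p = 0.0157) and the control change -0.71 (adjusted p = 0.00773).

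Irgm2, named after its values were seen, had 425 to 957 (median 593) in smoke-to-forced-air lungs and 301 to 419 (median 387) in forced air lungs of 24 weeks, against 579, 506, 355, 465 and 555 in smoke lungs and 422 to 586 (median 463) in forced air lungs of 12 weeks. Here too the groups at 24 weeks did not overlap. In Irgm2 the effect after cessation was 0.67 ± 0.14 (SE; adjusted p = 0.0104), called whichever array was left out. The difference of effects, 0.66 ± 0.21 (adjusted p = 0.0294), was lost without any of 6 single arrays.

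Of 17 tested clock genes 1 was higher and 2 were lower after cessation, where 1.98% of all genes were called. Per2, a repressor of the clock, had 400 to 687 (median 504) in smoke-to-forced-air lungs and 717 to 959 (median 800) in forced air lungs of 24 weeks, against 599, 584, 728, 700 and 520 in smoke lungs and 570.5 to 766 (median 670) in forced air lungs of 12 weeks. All cessation lungs lay below all their controls. In Per2 the effect after cessation was -0.68 ± 0.12 (SE; adjusted p = 0.00213), whereas the 12-week effect was -0.09 (adjusted p = 0.640).

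Arntl, the activator known as BMAL1, moved the other way. It had 46.7 to 89.9 (median 71.4) in smoke-to-forced-air lungs and 28.4 to 48.3 (median 39.9) in forced air lungs of 24 weeks, against 28.03, 39.7, 24.4, 30.3 and 38.3 in smoke lungs and 24.1 to 36.2 (median 27.3) in forced air lungs of 12 weeks. Only the lowest cessation lung overlapped the controls. In Arntl the effect after cessation was 0.67 ± 0.15 (SE; adjusted p = 0.0108), and the difference of effects was not called (0.55, adjusted p = 0.0876). The second repressor Cry1, named after its values were seen, had -0.64 after cessation (adjusted p = 0.00213) with no overlap between cessation lungs, at 215 to 397, and their controls, at 440 to 555. The time of day at which lungs were taken is not given in the sources used here. Among the clock genes' differences of effects 1 was higher (Nr1d1) and 3 were lower.

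The series holds a second cessation group of 6 mice, labelled smoke to room air, which shares the forced air controls of 24 weeks and both groups of 12 weeks, so its values are set beside these and no agreement is drawn from them. Against forced air of 24 weeks 2273 genes (15.1%) were called in it, and 2140 genes (14.2%) had a called difference of effects. Of the 298 genes called with forced air cessation 267 were called in the same direction. Of the 1384 undone genes 1084 also had a called difference with room air, and 167 were still called in the 12-week direction there. One of those was Slc26a4, the anion exchanger pendrin of airway epithelium.

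Slc26a4 had 18.8 to 128 (median 43.4) in smoke-to-forced-air lungs and 62.3 to 476 (median 70.3) in smoke-to-room-air lungs, against 14.8 to 71.8 (median 25.9) in forced air lungs of 24 weeks. At 12 weeks it had 315, 249, 238, 331 and 393 in smoke lungs, against 8.90 to 26.4 (median 16.1) in forced air lungs. Cessation lungs of the forced air group overlapped their controls and lay below all smoke lungs. The effect left was 0.56 (adjusted p = 0.374) with forced air and 1.43 (adjusted p = 0.000621) with room air, and the difference of effects with forced air was -2.71 ± 0.44 (SE; adjusted p = 1.27e-05). In room air lungs Per2 had -2.09 and Arntl 1.99 against forced air of 24 weeks, both called, and Eln, which encodes elastin, had 1.25 (adjusted p = 1.04e-12) where forced air cessation gave 0.19 (adjusted p = 0.385).

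Among genes given whatever their result, those of the main secretory cells did not pass any of the 3 tests. The surfactant gene Sftpc had 0.00 after cessation and -0.16 at 12 weeks, the club cell secretory gene Scgb1a1 -0.04 and -0.15, and the mucin Muc5b -0.22 and -0.15. For these 3 genes the difference of effects was 0.16, 0.11 and -0.08 in that order.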

How the data were processed

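Per the labels' protocols, total RNA (50 ng) of the small lung lobe of each mouse was amplified, biotin-labelled and hybridised to 1 Affymetrix Mouse 430 2.0 array, and samples were processed in random order. Per the submitters' processing notes the tool was MAS5. The deposited intensity values are linear signals that the authors had scaled to a trimmed mean of 150 (leaving out 2% at each end) on every array, as the values themselves show. A detection p-value for each probe set was deposited beside them. Neither holds sequencing reads, so the number of arrays limits the precision.

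From these, log2 of the deposited signal plus 16 was computed and no further normalization was applied. A probe set stayed in if at least 50% of some group's arrays had a detection p-value under 0.05, as 35615 of 45101 did. The platform annotation gave 1 gene symbol for 34945 probe sets, several for 932 and none for 9160, and 64 were controls. The brightest kept probe set with 1 symbol stood for its gene, giving 15030 genes, of which 7329 had more than 1 kept probe set. Of the 149 genes named by rule 60 had more than 1 kept probe set and 101 had a called difference of effects. Only genes with both could have another probe set called in the opposite direction, and none had. limma 3.58.1 (lmFit and eBayes with trend, R 4.3.3) was fitted to all 53 arrays in 9 groups, so that all groups share 1 estimate of the spread, with contrasts for each effect and for the difference of effects. Tests were two-sided, with Benjamini-Hochberg adjustment over 15030 genes at 0.05. The procedure was tested on simulated data. Nothing in the labels beyond 1 array per mouse describes litters or cages, so p-values measure the spread between these mice.

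Genes and lists were chosen with earlier results of these data known. Named by rule were the 10 highest and 10 lowest differences of effects among undone, partly undone or turned genes, the 8 highest and 8 lowest effects after cessation among genes kept or partly undone, the 5 highest and 5 lowest differences without a call at 12 weeks, the 5 turned genes furthest from 0, up to 3 members of each list by 12-week effect and 2 by effect after cessation, and a panel given whatever its result. Unnamed transcripts were skipped in the first 4 of these. Cd68, Ccl20, Cxcl14, Il1rn, Csf2, Gclc, Akr1b8, Gstm2, Keap1, Ehhadh, Gbp2, Bst2, Ifih1, H2-Ab1, H2-Eb1, Hk2, Mmp19, Lox, Col5a1, Irgm2 and Cry1 fell outside the rule and were named after their values were seen. Alternatives were a pseudocount of 1, quantile normalization, all probe sets without the filter, another probe set per gene, only the 4 groups, title ranges as a block, 3′/5′ ratios as covariates, a minimum change and leaving out arrays.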

Additional observations from a re-analysis of the deposited data

Results flagged for a closer look

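Dixon's criterion was applied to 156 sets of values from groups of 5 or 6 arrays, 140 of them signals of featured genes and 16 measures of whole arrays (Gapdh and actin ratios, percent present and median signal). In 17 sets, all of gene signals, 1 array's gap to the nearest of its group was large for the group's range. For normally distributed values chance alone gives about 1 in 20 such groups. The signals were used on the linear scale and may not be so distributed, so no excess over chance is read from this count. In forced air lungs of 24 weeks the high values were 381.8 for Orm1 (next 48.11), 529.2 for Cxcl13 (next 288.7), 179.9 for C1qc (next 119.6), 86.1 for Mx1 (next 47.57), 308.2 for Igkv14-111 (next 90.41), 71.77 for Slc26a4 (next 34.71) and 9.044 for Clca1 (next 4.46). The values of Orm1, Cxcl13, C1qc, Mx1 and Igkv14-111 all came from replicate 4 of that group.

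In smoke-to-forced-air lungs they were 222.4 for Cxcl2 (next 59.86), 85.07 for Asgr1 (next 62.22), 878.4 for Igtp (next 514.6) and 1421 for Gzma (next 699.1), the last 2 both from replicate 3. In smoke lungs of 12 weeks Ccl20 had 1 high value of 105.5 (next 45.18), Slc7a11 1 low value of 28.43 (next 48.2) and Wt1 1 low value of 8.729 (next 19.27). In forced air lungs of 12 weeks the high values were 36.99 for Wt1 (next 25.78), 36.17 for Arntl (next 28.5) and 1423 for Acta2 (next 1068), the last from replicate 1, the array with the highest Gapdh ratio of the 23.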

How the results depend on the processing

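Percents here are of all genes tested. Leaving out each of the 23 arrays in turn gave 4.54% to 6.33% higher and 4.94% to 6.05% lower in the difference of effects, 10.57% to 12.99% higher and 7.53% to 10.66% lower at 12 weeks, and 0.346% to 2.44% higher and 0.14% to 0.665% lower after cessation. It gave 21.66% to 26.35% called between the controls, 16.15% to 22.85% between cessation and smoke lungs, and 11.58% to 15.66% after room air cessation with 12.19% to 14.61% differing from the 12-week effect. Undone genes ranged from 7.54% (without replicate 5 of smoke at 12 weeks) to 9.94%, partly undone from 0.02% to 0.253%, turned from 0.0266% to 0.313%, kept from 0.106% to 0.971% and unresolved from 9.87% to 14.11%. The share of the 12-week effect left ran from 10.54% to 20.02%, and over genes called at 2 weeks it was 10.34%. Turned genes made up 0.26% with quantile normalization, and partly undone genes 0.077% without a detection filter. Fitting only the 4 groups gave 0.499% higher and 0.193% lower after cessation, 0.02% partly undone, 0.0532% turned and 0.153% kept. With the probe set of largest spread 0.0865% were partly undone and 0.326% kept. With title ranges as a block 2.87% were higher and 1.04% lower after cessation, 0.326% partly undone, 0.273% turned and 1.18% kept. Fitting the 3′/5′ ratios as covariates left 15.66% called between the controls.

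Asking for an absolute log2 change of at least 1 left 0.0599% higher and 0.818% lower in the difference of effects, 1.35% higher and 0.0399% lower at 12 weeks, and 0.0067% higher and 0% lower after cessation. It left 0.0532% between the controls, 0.818% between cessation and smoke lungs, 0.306% after room air cessation and 1.02% differing there from the 12-week effect, and 0.805% undone, 0% partly undone, 0% turned, 0.0067% kept and 0.579% unresolved. Of 153 named or featured genes 48 had no called difference of effects. Of the rest 14 lost the call without at least 1 of the arrays, 13 under the 3′/5′ covariates, 8 with the probe set of largest spread, 7 with only the 4 groups and 62 with the minimum change. Of 41 with a called effect after cessation these counts were 25, 0, 12, 18 and 40. In both sets each other alternative lost at most 8 calls. None of these genes reversed direction while called in any alternative run. The cause of these shifts was not tested. No paired analysis was possible because the labels give no replicate numbers that groups share. With 5 or 6 arrays a group, small changes stay unresolved, and probe sets near background carry little signal.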
